A study of Mus musculus with 8 samples.

Results

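The genes described here are 10 genes that report on macrophages and on antigen presentation in muscle: C1qa, C1qb, C1qc, Lyz2, Cd68, Ctss, Cd74, H2-Aa, H2-Ab1 and B2m. They were taken by gene symbol, together with every polyadenylation site (APS, the base at which a transcript is cleaved and its poly(A) tail begins) that the deposited table assigned to them. 8 of the 10 genes had at least 1 APS. These 8 genes held 12 of the 56483 APSs and were 8 of the 15349 gene symbols in the table. H2-Aa and H2-Ab1 had no APS, and none lay within 2000 bases of either gene, so no value is given for them. Sites entered the table only with 16 reads or more in total, so a missing gene may have had reads below that limit.

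The study compared mice lacking a catalytic subunit of AMP-activated protein kinase (AMPK), a sensor of cellular energy, with wild-type (WT) controls, to ask how each knockout (KO) changes the 3′ ends of muscle transcripts. Each library held the 3′-end reads of the gastrocnemius muscle of 1 male mouse, sequenced with the WTTS-seq method, in which a read marks the end of 1 transcript and read numbers are not divided by transcript length. There were 4 groups of 2 libraries: AMPKα1 KO, AMPKα1 WT, AMPKα2 KO and AMPKα2 WT. The AMPKα1 KO mice were AMPKα1-/- on 129S2/SvPas and about 6 weeks old, and the AMPKα2 KO mice were AMPKα2-/- on C57BL/6 and about 8 weeks old. These strains and ages come from the methods, which give none for the WT mice. The labels name C57BL/6 for every library and call every animal adult, so both sources differ on the background of the AMPKα1 KO mice. The deletion in each line removes part of the catalytic domain. The deletions were not limited to muscle fibres, so immune cells of the KO mice carried them too. The labels name no agent for any group. The subunit studied, the strain named in the methods, the age and the set of libraries change together between the AMPKα1 and AMPKα2 groups and cannot be told apart.

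The tissue was whole muscle, in which immune cells are a minority. In bulk samples such as these, fewer cells of a type and less RNA per cell cannot be told apart. Library sizes ranged from 2311242 to 3549156 reads. The scaling factors that edgeR (TMM) gave were 1.53 to 2.14 in the AMPKα1 libraries and 0.403 to 0.624 in the AMPKα2 libraries, which makes every level compared between the models depend on that scaling. Levels are given below as CPM, the usual unit of read counts scaled to library size, here the reads assigned to genes after TMM scaling. The 10 muscle fibre markers summed to 45238 CPM or more in each of the 8 libraries. The reads of the targeted genes do not check the labels, because where their sites lie relative to the deleted catalytic region was not examined. Prkaa1, which encodes AMPKα1, had 0 and 82 reads in AMPKα1 KO against 15 and 0 in AMPKα1 WT, and Prkaa2, which encodes AMPKα2, had 40 and 71 reads in AMPKα2 KO against 87 and 62 in AMPKα2 WT. The AMPKα1 KO 2 library stood apart from the other AMPKα1 libraries in lymphocyte reads, as described below.

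The members fall into 3 roles. C1qa, C1qb and C1qc encode the chains of C1q, the recognition molecule of the classical complement pathway, and in most tissues resident macrophages are their main source. Lyz2 encodes lysozyme of myeloid cells, Cd68 a lysosomal membrane protein of macrophages, and Ctss cathepsin S, a lysosomal protease that trims the invariant chain. Cd74 encodes the invariant chain itself, which guides major histocompatibility complex (MHC) class II molecules through the cell; H2-Aa and H2-Ab1 encode the chains of a class II molecule. B2m encodes β2-microglobulin, the light chain of MHC class I, which nearly all nucleated cells make, so B2m is not specific to immune cells.

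The 12 APSs lay on the strand of their gene, either in the 3′ untranslated region (3′ UTR) or at most 5 bases past the annotated gene end (GRCm38, GENCODE M21). C1qa, C1qb, C1qc, Cd68 and Ctss had 1 APS each, B2m and Cd74 had 2, and Lyz2 had 3. Cleavage usually follows a short hexamer, most often AATAAA or its variant ATTAAA, that lies upstream of the site. The 30 bases that end at the site, or at the transcript end where the site lies beyond it, are shown for the members with more than 1 APS and for the C1q chains, since those sites carry the values below. They are transcript sequence, written 5′ to 3′, with the hexamer in capitals where there is one.
B2m proximal, chr2:122152843-122152872, plus strand: atcagaatAATAAAtataattttaagaaca
B2m distal, chr2:122153054-122153083, plus strand: ttttgttacttttactaaaAATAAAaaact
Lyz2 distal, chr10:117277333-117277362, minus strand: tacaaatggcATTAAAtcattttcaatgca
Lyz2 middle, chr10:117277424-117277453, minus strand: cttaagttccttcattcacactaactctga
Lyz2 proximal, chr10:117277540-117277569, minus strand: ttgcttaaaaAATAAAttctcagctcatgt
C1qa, chr4:136895917-136895946, minus strand: ggAATAAAcgatccccgtctgtgtctgtga
C1qb, chr4:136880132-136880161, minus strand: acgaatgggtcAATAAActcttcaaggcca
C1qc, chr4:136889808-136889837, minus strand: tggtgagatagagaAATAAAtagatcacta
Of the 10 windows read (the Cd74 sites were not read), 8 held AATAAA, 1 held ATTAAA and 1 held neither, searched on the transcript strand only. Over all 20559 APSs whose window lay in 1 annotated exon, 31.3% held AATAAA and 10.4% held ATTAAA. Those sites could lie in any exon, whereas the member sites lay in the 3′ UTR or just past the gene end, so the 2 sets are not alike. The window with neither hexamer was the middle Lyz2 site.

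**Figure D1:**
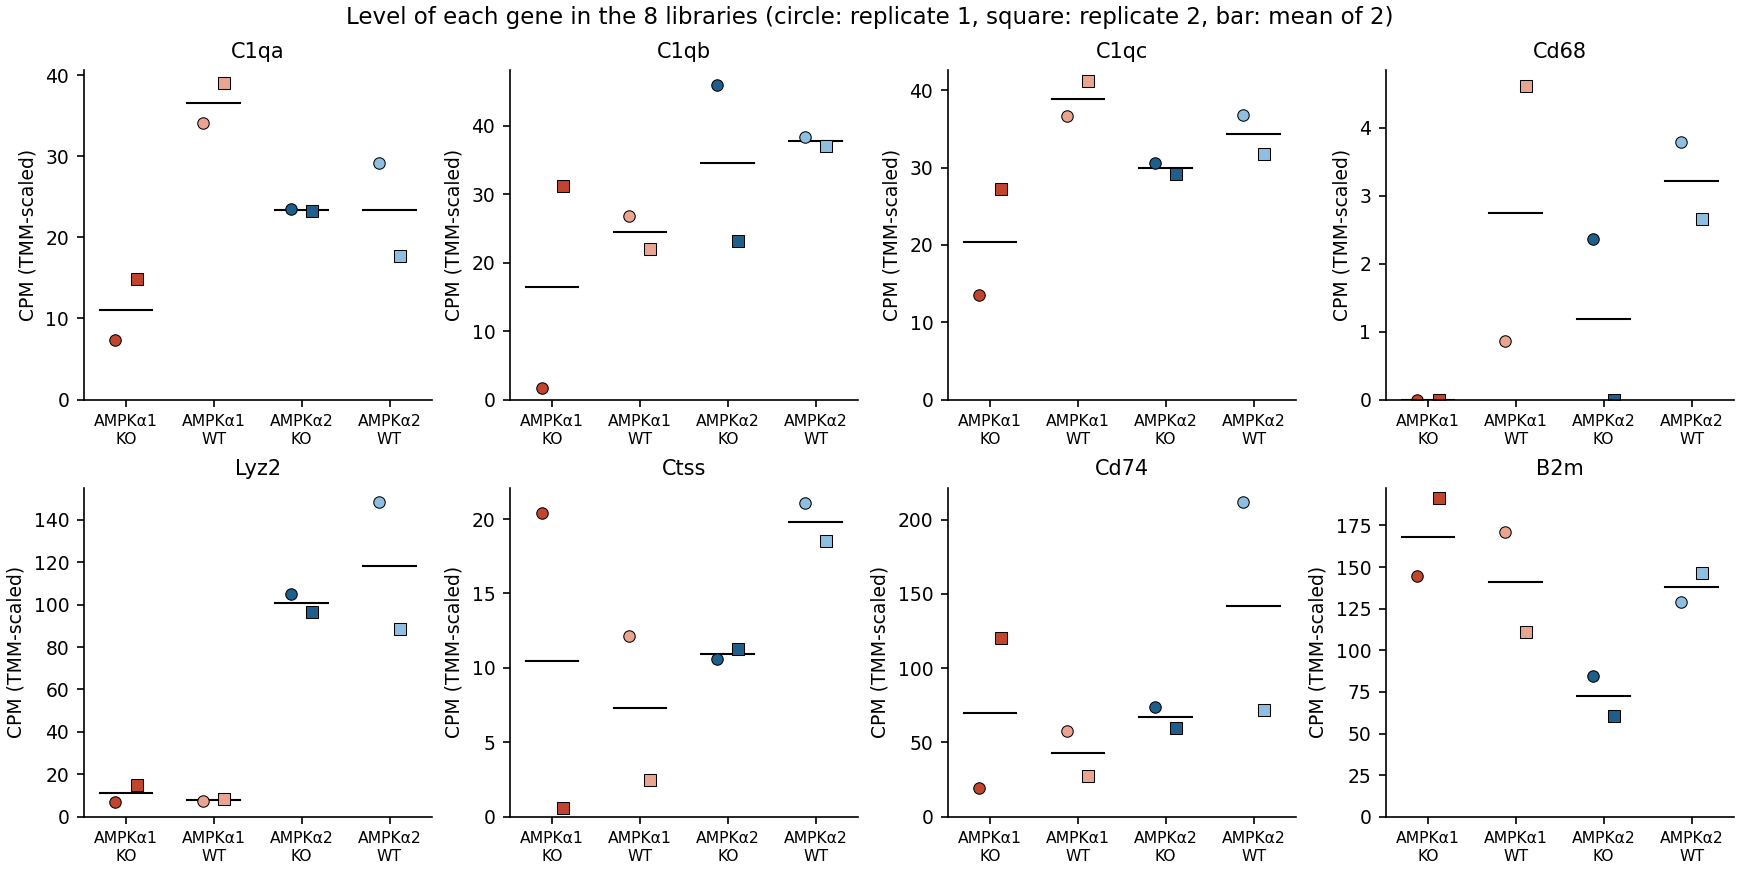
Level of each of the 8 members with an APS in the 8 libraries, in CPM after TMM scaling, each panel on its own axis from 0; circles are replicate 1, squares replicate 2 and bars the mean of 2. Lyz2 sits at 7.05 to 15.0 CPM in the AMPKα1 libraries and at 88.3 to 148 CPM in the AMPKα2 libraries, while B2m is lower in both AMPKα2 KO libraries than in both AMPKα2 WT libraries.

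In the AMPKα1 model, C1qa was lower in both KO libraries than in both WT libraries, C1qc was so with TMM scaling alone, and C1qb was not. C1qa had 47 and 101 reads in KO against 118 and 254 in WT, or 7.37 and 14.8 CPM against 34.1 and 39.1 CPM. The groups did not overlap. C1qc had 86 and 186 reads against 127 and 268, or 13.5 and 27.3 CPM against 36.7 and 41.2 CPM, without overlap. With CPM from library totals the C1qc groups overlapped, since AMPKα1 KO 2 had 56.7 and AMPKα1 WT 1 had 54.9. C1qb had 11 and 213 reads in KO against 93 and 143 in WT, so the KO libraries lay on both sides of the WT pair. The edgeR log2 fold changes (KO against WT) were -1.74 (SE 0.64, adjusted p = 0.763) for C1qa, -0.95 (SE 0.59, adjusted p = 0.763) for C1qc and -0.57 (SE 1.19, adjusted p = 0.999) for C1qb. None passed the threshold of an adjusted p under 0.1.

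The chains of C1q are made in a fixed ratio in the protein, and their share of the summed C1q reads can be read within a library without any scaling. C1qb made up 7.64% of the 144 C1q reads of AMPKα1 KO 1 (95% Wilson interval 4.32 to 13.2%) and 42.6% of the 500 C1q reads of AMPKα1 KO 2 (38.3 to 47.0%). In the other 6 libraries it made up 21.5 to 45.9%. The 2 KO libraries of AMPKα1 thus differed from each other in C1qb by more than counting error, and the AMPKα1 KO 1 library was the lowest of the 8. Such intervals cover counting error only, because reads made by PCR are not independent molecules.

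The lysosomal and antigen presentation members of the AMPKα1 model varied widely between the libraries of a group. Lyz2 had 45 and 102 reads in KO against 26 and 56 in WT. Ctss had 130 and 4 reads against 42 and 16, so the WT libraries lay between the KO libraries. Cd74 had 122 and 820 reads against 200 and 180, so the KO libraries again lay on both sides of the WT pair. B2m had 924 and 1304 reads against 593 and 722, or 145 and 191 CPM against 171 and 111 CPM, and the groups overlapped in CPM but not in reads or in CPM from library totals, where KO was higher. Cd68 had 0 and 0 reads in KO against 3 and 30 in WT. Against a floor of 3 reads per library, Cd68 was at least 6.02-fold lower in the KO libraries, but 30 of the 33 WT reads came from 1 library.

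In edgeR's fit across all genes, 0 of the 8 members passed in AMPKα1 KO against WT, as did 0 of all 13924 genes tested (0%). At an unadjusted p under 0.05 there were 589 genes, of which 1 was a member (C1qa), and DESeq2 called 115 genes and 0 members. 4 members had a log2 fold change below 0 and 4 above it, with a median of -0.17 over members and -0.03 over all genes. Besides the C1q chains, the estimates were 0.43 (SE 1.00) for Lyz2, 0.47 (SE 1.68) for Ctss, 0.70 (SE 0.89) for Cd74 and 0.23 (SE 0.42) for B2m, none with an adjusted p under 0.98. The directions of C1qb, Lyz2, Ctss, Cd74 and B2m turned when a single library of the model was left out. In data simulated from these libraries, the AMPKα1 comparison recovered 9 of 200 genes changed by 4-fold and 87 of 200 changed by 16-fold, so differences of the size seen in the C1q chains were mostly not detectable at this depth and spread.

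**Figure D2:**
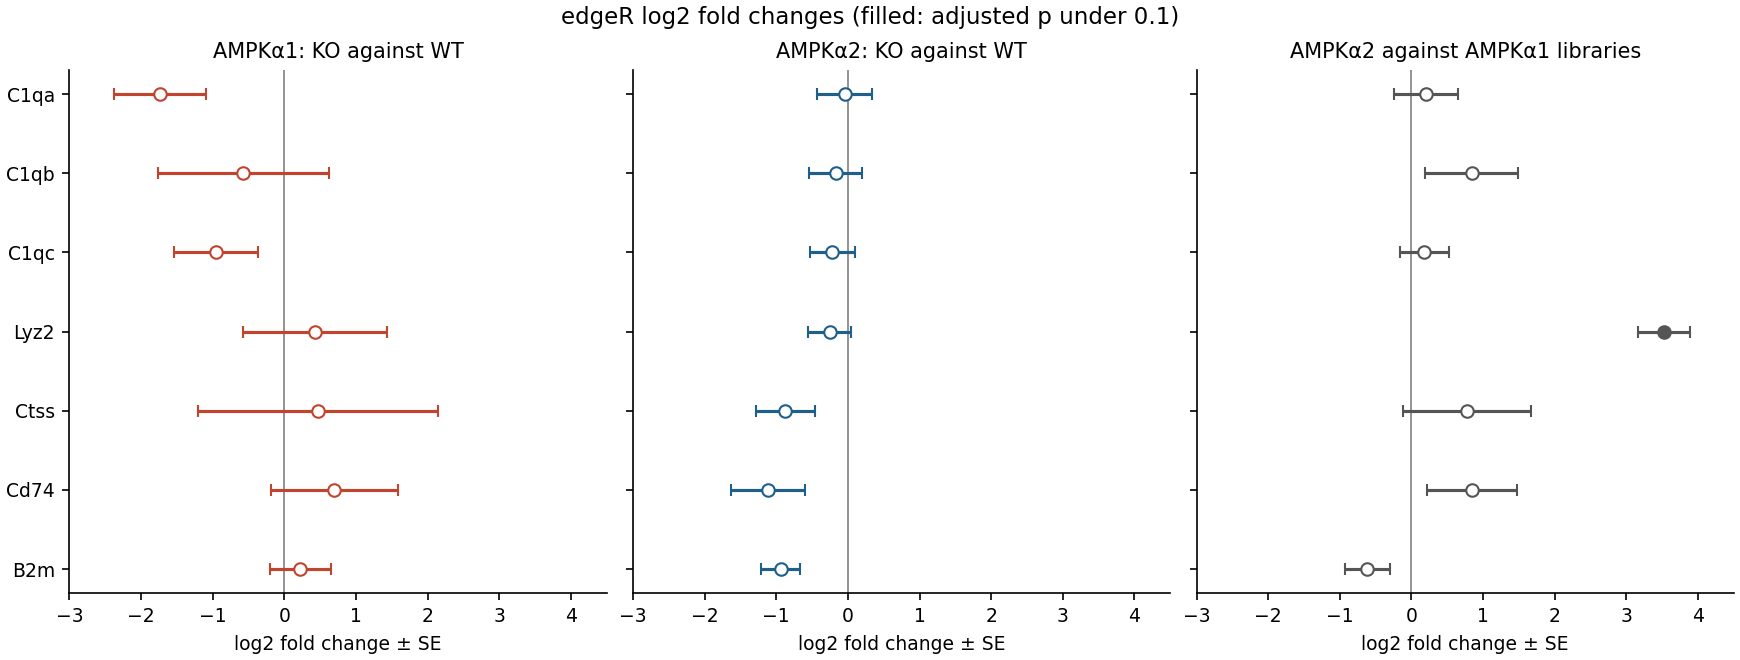
edgeR log2 fold changes with their standard errors for the 7 members tested in all comparisons, for KO against WT in each model (positive: higher in KO) and for AMPKα2 against AMPKα1 libraries (positive: higher in AMPKα2); filled points have an adjusted p under 0.1. Only the Lyz2 point of the comparison between models, at 3.52, is filled.

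In the AMPKα2 model, all 7 members tested had a log2 fold change below 0 (KO against WT), and none passed the test over all genes. B2m showed the clearest separation. It had 72 and 81 reads in KO against 239 and 166 in WT, or 84.8 and 60.7 CPM against 129 and 147 CPM. The 2 groups did not overlap, with means of 72.7 ± 17.02 CPM (SD, n = 2) and 138 ± 12.3 CPM (SD, n = 2). The log2 fold change was -0.94 (SE 0.28), a 1.92-fold lower level, with an adjusted p of 0.313 in edgeR. Over the 12 alternatives the adjusted p ranged from 0.0547 to 1.00, and B2m passed in 1 of them, the fit with no filter on low reads.

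Ctss and Cd74, which act on the MHC class II route, were the other members with log2 fold changes near -1. Ctss had 9 and 15 reads in KO against 39 and 21 in WT, or 10.6 and 11.2 CPM against 21.1 and 18.5 CPM, without overlap (log2 fold change -0.87, SE 0.42, adjusted p = 0.613 in edgeR). Cd74 had 63 and 80 reads against 392 and 81, or 74.2 and 60.0 CPM against 212 and 71.5 CPM. The AMPKα2 WT 2 library lay among the KO libraries, and only AMPKα2 WT 1 stood above. In reads and in CPM from library totals AMPKα2 WT 2 lay above both KO libraries. The log2 fold change of Cd74 was -1.11 (SE 0.51, adjusted p = 0.630), and it was -0.11 without AMPKα2 WT 1. Without AMPKα2 WT 2 it was -1.68 with an adjusted p of 0.0924, which passes the threshold, so 1 library decides the value.

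The C1q chains and Lyz2 had the log2 fold changes nearest to 0 among the members tested in the AMPKα2 model. C1qa had 20 and 31 reads in KO against 54 and 20 in WT, C1qb 39 and 31 against 71 and 42, and C1qc 26 and 39 against 68 and 36. Their log2 fold changes were -0.04 (SE 0.38), -0.17 (SE 0.37) and -0.22 (SE 0.32). Lyz2 had 89 and 129 reads against 274 and 100, with a log2 fold change of -0.25 (SE 0.30, adjusted p = 0.863 in edgeR). Summed over the 3 chains, C1q ran at 100 and 75.7 CPM in the KO libraries and at 104 and 86.5 CPM in the WT libraries. Cd68 had 2 and 0 reads against 7 and 3 and was under the filter of 16 reads.

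Over all genes, 51 of 10536 passed in AMPKα2 KO against WT (0.484%), 27 higher and 24 lower, and 0 of the 7 members did. The median log2 fold change of the members was -0.25 and that of all genes -0.00, with 50.4% of all genes below 0. The simulated AMPKα2 comparison recovered 140 of 200 genes changed by 4-fold. With 2 libraries against 2, an exact two-sided permutation test of a single gene cannot give a p below 0.333, so separation without overlap is a description here.

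Whether a KO acted differently in the 2 models was tested as an interaction term in a fit of the 8 libraries. 9 of 15349 genes passed (0.0586%), and 0 of the 8 members did. B2m had the KO effect in AMPKα2 below that in AMPKα1 by 1.18 on the log2 scale (interaction -1.18, SE 0.51, adjusted p = 0.712), and C1qa had it above (1.70, SE 0.73, adjusted p = 0.707). Both had an unadjusted p under 0.05 in edgeR, and 1063 genes did so in all. Without AMPKα1 KO 2, C1qb passed this test.

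Of the APSs of B2m, the distal one had the larger estimate in the AMPKα2 model. The distal site (position 122153087 on chromosome 2) had 44 and 52 reads in KO against 188 and 132 in WT, or 51.8 and 39.0 CPM against 102 and 117 CPM. The proximal site (position 122152872, in exon 4, the last exon of B2m-201) had 28 and 29 reads against 51 and 34, or 33.0 and 21.7 CPM against 27.6 and 30.03 CPM, with groups that overlapped in CPM but not in reads. In the fit across APSs the log2 fold change was -1.42 (SE 0.36, adjusted p = 0.502) at the distal site and -0.23 (SE 0.42, adjusted p = 0.901) at the proximal site, in edgeR. Neither passed, the difference between the sites was not tested, and the direction of the proximal site turned (0.03) without AMPKα2 KO 2.

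As a share of B2m reads, which needs no scaling between libraries, the proximal site made up 38.9% (Wilson 28.5 to 50.4%) and 35.8% (26.2 to 46.7%) in the AMPKα2 KO libraries. It made up 21.3% (16.6 to 27.0%) and 20.5% (15.0 to 27.3%) in the AMPKα2 WT libraries. The means were 37.3% ± 2.18 (SD, n = 2) and 20.9% ± 0.606 (SD, n = 2), and the groups did not overlap. In the AMPKα1 model the shares were 34.5 and 22.0% in KO and 24.3 and 17.7% in WT, and these groups did overlap. Shorter and longer B2m 3′ UTRs code for the same protein.

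Cd74 also has a proximal APS, which held a smaller share of its reads. Its proximal site (position 60812315) lies upstream of the distal site (60812652) and had 12 and 10 reads in AMPKα2 KO against 14 and 3 in AMPKα2 WT. That was 19.05 and 12.5% of Cd74 reads in KO and 3.57 and 3.70% in WT, without overlap. The mean shares were 15.8% ± 4.63 (SD, n = 2) and 3.64% ± 0.0935 (SD, n = 2). The sites behind the low WT shares differed between the WT libraries. AMPKα2 WT 1 had 204 CPM at the distal site against 60.1 and 52.5 CPM in KO, and 7.57 CPM at the proximal site against 14.1 and 7.49 CPM. AMPKα2 WT 2 had 68.9 CPM at the distal site, near the KO libraries, and 2.65 CPM at the proximal site, below both. Neither site passed (distal log2 fold change -1.44, SE 0.52, adjusted p = 0.629 and proximal 0.81, SE 0.70, adjusted p = 0.788, in edgeR), and the distal value ran from -2.03 to -0.44 over the alternatives. In the AMPKα1 model the proximal Cd74 site had 0 of 1322 reads, which allows a share of up to 0.227%, while the AMPKα2 model had 39 of 616 reads there, 6.33%. Among all APSs, 28006 to 33517 had a read in an AMPKα1 library and 35470 to 43686 in an AMPKα2 library. Reads at more sites were thus a general trait of the AMPKα2 libraries.

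**Figure D3:**
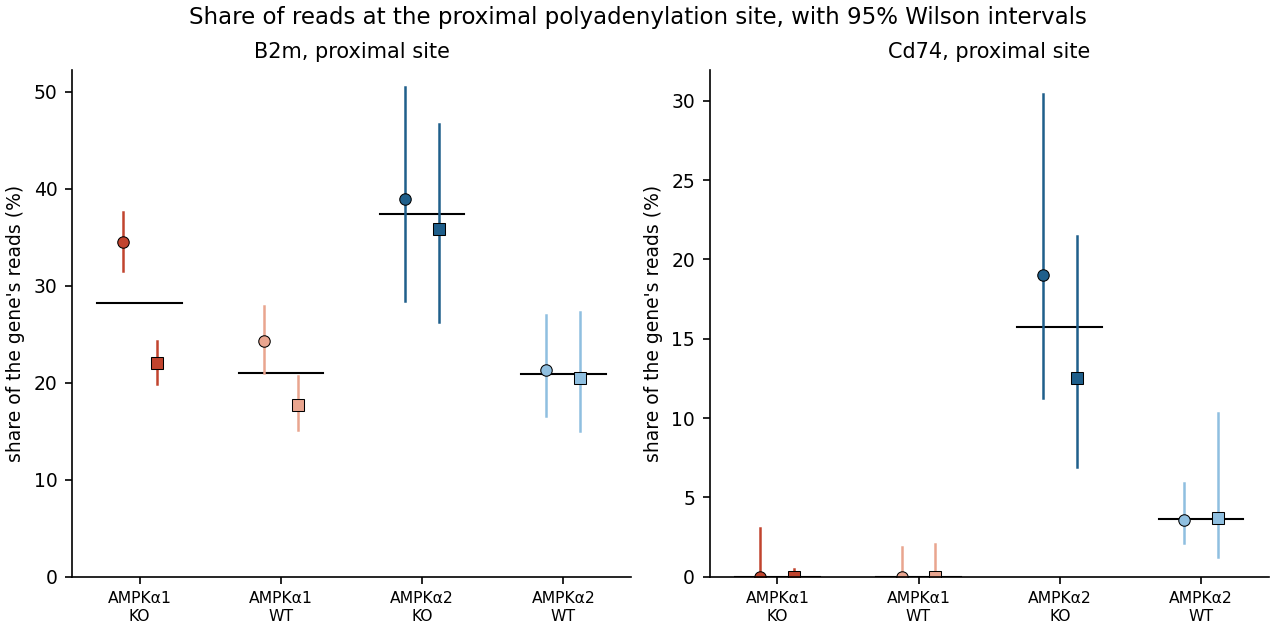
Share of the reads of B2m (left) and Cd74 (right) at the proximal site in each library, in percent, with 95% Wilson intervals; circles are replicate 1, squares replicate 2 and bars the mean of 2. The AMPKα2 KO libraries lie at 35.8 and 38.9% for B2m against 20.5 and 21.3% in AMPKα2 WT, and at 12.5 and 19.05% for Cd74 against 3.57 and 3.70%.

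In the fits across APSs, 0 of 9 member APSs passed in AMPKα1 and 0 of 11 in AMPKα2. The background was 2 of 44024 APSs in AMPKα1 (0.00454%) and 13 of 23218 in AMPKα2 (0.056%). At an unadjusted p under 0.05 there were 1353 and 1763 APSs. DESeq2 called 218 and 96. No member APS passed with DESeq2 in either model. One APS on the strand of B2m and inside it, with 46 reads in all, was assigned to the overlapping gene Patl2 and was not counted with B2m.

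Lyz2 set the models apart. It had 45, 102, 26 and 56 reads in the AMPKα1 libraries (KO 1, KO 2, WT 1, WT 2) and 89, 129, 274 and 100 in the AMPKα2 libraries. In CPM that was 7.05, 15.0, 7.51 and 8.61 against 105, 96.7, 148 and 88.3. All AMPKα2 libraries lay above all AMPKα1 libraries, and the KO and WT libraries of each model lay together. The log2 fold change between models, with genotype in the fit, was 3.52 (SE 0.36), an 11.5-fold higher level, with an adjusted p of 7.08e-05 in edgeR. Lyz2 passed in all 14 alternatives, with adjusted p from 2.93e-17 to 0.00955. Scaling by library totals gave the smallest estimate, 1.72, while the median of all genes moved from -0.00 to -1.76. Relative to that median, Lyz2 was 3.53 higher with TMM and 3.48 higher with totals.

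The ratio of Lyz2 to C1q reads shows the same difference without scaling between libraries. Per 100 C1q reads, Lyz2 had 31.2, 20.4, 7.69 and 8.42 reads in the AMPKα1 libraries and 105, 128, 142 and 102 in the AMPKα2 libraries. The lowest AMPKα2 library was above the highest AMPKα1 library. B2m had 6.42, 2.61, 1.75 and 1.09 reads per C1q read in the AMPKα1 libraries and 0.847, 0.802, 1.24 and 1.69 in the AMPKα2 libraries, and these ranges overlapped. For single values over 4 libraries against 4, the smallest two-sided exact permutation p is 0.0286.

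**Figure D4:**
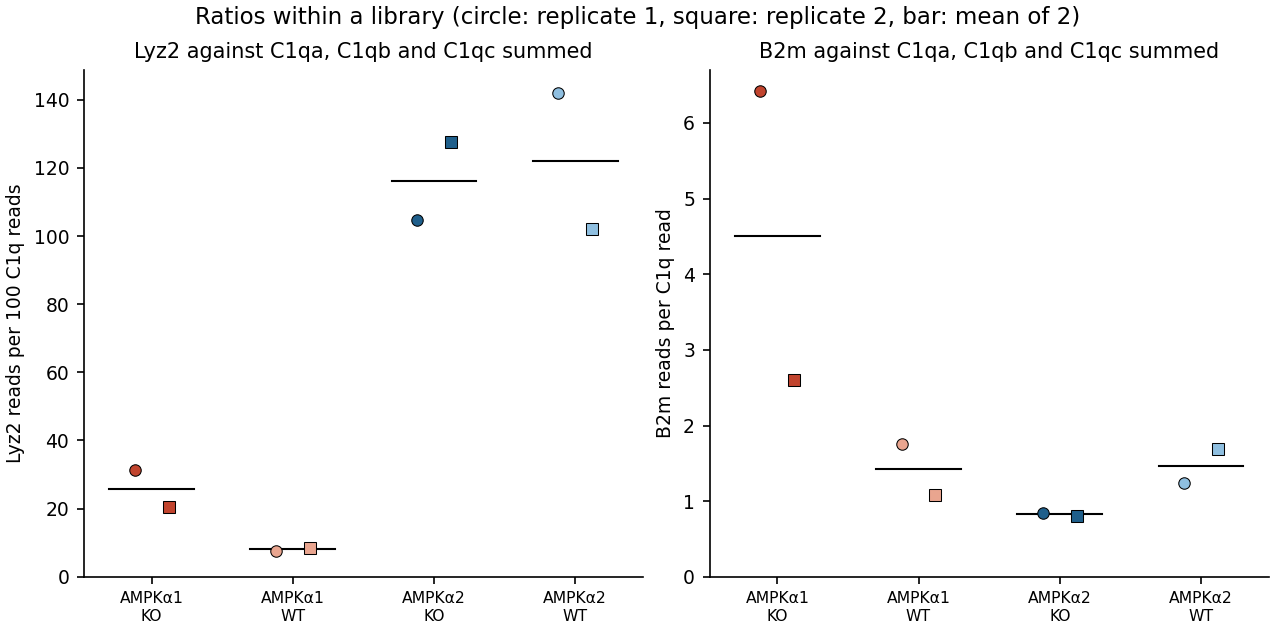
Reads of Lyz2 per 100 summed reads of C1qa, C1qb and C1qc (left) and reads of B2m per such read (right), per library; circles are replicate 1, squares replicate 2 and bars the mean of 2. The Lyz2 ratio runs from 7.69 to 31.2 in the AMPKα1 libraries and from 102 to 142 in the AMPKα2 libraries, while the B2m ratio runs from 1.09 to 6.42 and from 0.802 to 1.69, with overlap.

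In both models most Lyz2 reads ended at the distal site. The distal site held 227 of 229 Lyz2 reads in AMPKα1 and 550 of 592 in AMPKα2 (99.1 and 92.9%). The middle site, whose window has neither hexamer, had 0 of 229 reads in AMPKα1, which allows a share of up to 1.31%, and 26 of 592 in AMPKα2 (4.39%). As given above for Cd74, the AMPKα2 libraries had reads at more APSs in general. The proximal site, with AATAAA, had 2 and 16 reads. Within AMPKα2 the middle site made up 3.80% ± 0.985 (SD, n = 2) of Lyz2 reads in KO and 4.87% ± 0.181 (SD, n = 2) in WT. The related gene Lyz1 had 1 APS with 47 reads over all libraries, and how reads shared by both lysozyme genes were assigned is not given in the sources used here.

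Among the other members, none passed between the models. The log2 fold changes (AMPKα2 against AMPKα1) were 0.20 (SE 0.45) for C1qa, 0.84 (SE 0.65) for C1qb, 0.18 (SE 0.34) for C1qc, 0.77 (SE 0.89) for Ctss, 0.85 (SE 0.63) for Cd74, 1.91 (SE 1.68) for Cd68 and -0.62 (SE 0.32) for B2m. Of the 8 members, 1 was called higher and 0 lower. Of all 15349 genes, 2418 were called higher (15.8%) and 1027 lower (6.69%), so 1 of 8 is near the background share. With library totals in place of TMM, C1qa, C1qb, C1qc, Ctss and Cd74 turned to below 0, and C1qa, C1qc and B2m passed as lower. Relative to the median of all genes none of these members turned. C1qa was 0.21 above that median with TMM and 0.17 with totals, C1qb 0.84 and 0.74, C1qc 0.18 and 0.13, Ctss 0.77 and 0.84 and Cd74 0.85 and 0.83, while B2m was at -0.61 and -0.66.

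Other genes of the same pathways were read from lists. In AMPKα1 KO against WT, 0 of 103 tested entries of the 11 immune and antigen presentation lists passed in edgeR. DESeq2 called 1. In AMPKα2 KO against WT, 3 of 79 passed, all lower in KO, beside 0.484% of all genes. DESeq2 called 2 and gave S100a8 no adjusted p. Bst2, an interferon-induced membrane protein that tethers budding viruses, had 8 and 27 reads in KO against 107 and 67 in WT (log2 fold change -1.93, SE 0.37, adjusted p = 0.0796). Cd79b, a signalling chain of the B cell receptor, had 0 and 1 reads against 90 and 18 (adjusted p = 0.0571), a ratio of 79.1 with an exact counting interval of 13.9 to 3153. S100a8, a calcium-binding protein abundant in neutrophils, had 0 and 0 reads against 21 and 14 (adjusted p = 0.0643), at least 4.10-fold lower against a floor of 3 reads per library. Cd79b and S100a8 reached the filter of 16 reads only through their WT reads, so a call of either could only be lower in KO. Each of these calls was lost when a single library was left out: Bst2 without AMPKα2 KO 1, WT 1 or WT 2, Cd79b without KO 1, KO 2 or WT 1, and S100a8 without KO 1 or KO 2. All 3 were also lost when the 8 libraries shared 1 fit. The log2 fold changes stayed below 0 in these settings, from -1.56 to -1.96 for Bst2, from -4.84 to -8.42 for Cd79b and from -6.93 to -8.40 for S100a8, where fitted values against counts at or near 0 are no bounds.

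The general leukocyte markers lay below 0 in the same comparison. Of the 6 tested (of 7 with an APS) 0 passed, all had a log2 fold change below 0, and the median was -2.75 against -0.00 over all genes. Except for Arhgdib, the tested markers reached the filter of 16 reads only through their WT reads, so the filter favoured values below 0. Ptprc, which encodes the leukocyte phosphatase CD45, had 4 and 4 reads in AMPKα2 KO against 60 and 14 in AMPKα2 WT (log2 fold change -2.62, SE 0.63, adjusted p = 0.209 in edgeR), and it passed in 3 of 12 alternatives. Summed over the list, the KO libraries had 22.4 and 24.7 CPM and the WT libraries 179 and 66.2 CPM, without overlap.

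B cell and general leukocyte reads were highest in 2 libraries, which also had the most reads of Cd74, a gene that B cells express. The 4 B cell markers with an APS had 172 reads in AMPKα1 KO 2, 112 in AMPKα2 WT 1, 20 in AMPKα2 WT 2 and 1 in AMPKα2 KO 2. In the other 4 libraries all 4 markers were at 0. AMPKα1 KO 2 and AMPKα2 WT 1 had 820 and 392 Cd74 reads, against 63 to 200 in the other 6. The 7 general leukocyte markers had 839 reads in AMPKα1 KO 2 and 331 in AMPKα2 WT 1, against 19 to 189 in the others. In reads, the T and NK cell marker sum and the neutrophil marker sum did not share that order. Both sums were highest in AMPKα1 KO 2. After TMM scaling, the T and NK cell sum was instead highest in AMPKα2 KO 1, at 24.7 CPM against 15.4 CPM in AMPKα1 KO 2. The neutrophil sum after TMM scaling was highest in the same 2 libraries, at 31.4 CPM in AMPKα1 KO 2 and 24.3 CPM in AMPKα2 WT 1. The T cell genes Cd3e and Cd3g shared the order in reads, with 21 and 73 in AMPKα1 KO 2 and 2 and 3 in AMPKα2 WT 1. Both were at 0 in the other libraries. The 3 T and NK cell markers with an APS had 0, 105, 3 and 3 reads in the AMPKα1 libraries and 21, 12, 21 and 1 in the AMPKα2 libraries. Cd4 alone, a coreceptor of T cells that some myeloid cells also carry, had 21 and 12 reads in AMPKα2 KO against 16 and 1 in AMPKα2 WT. The 4 neutrophil markers had 74, 214, 52 and 27 reads in the AMPKα1 libraries and 2, 1, 45 and 26 in the AMPKα2 libraries. The part of lymphocytes and neutrophils in the Cd74, Ctss and B2m values was not tested.

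**Figure D5:**
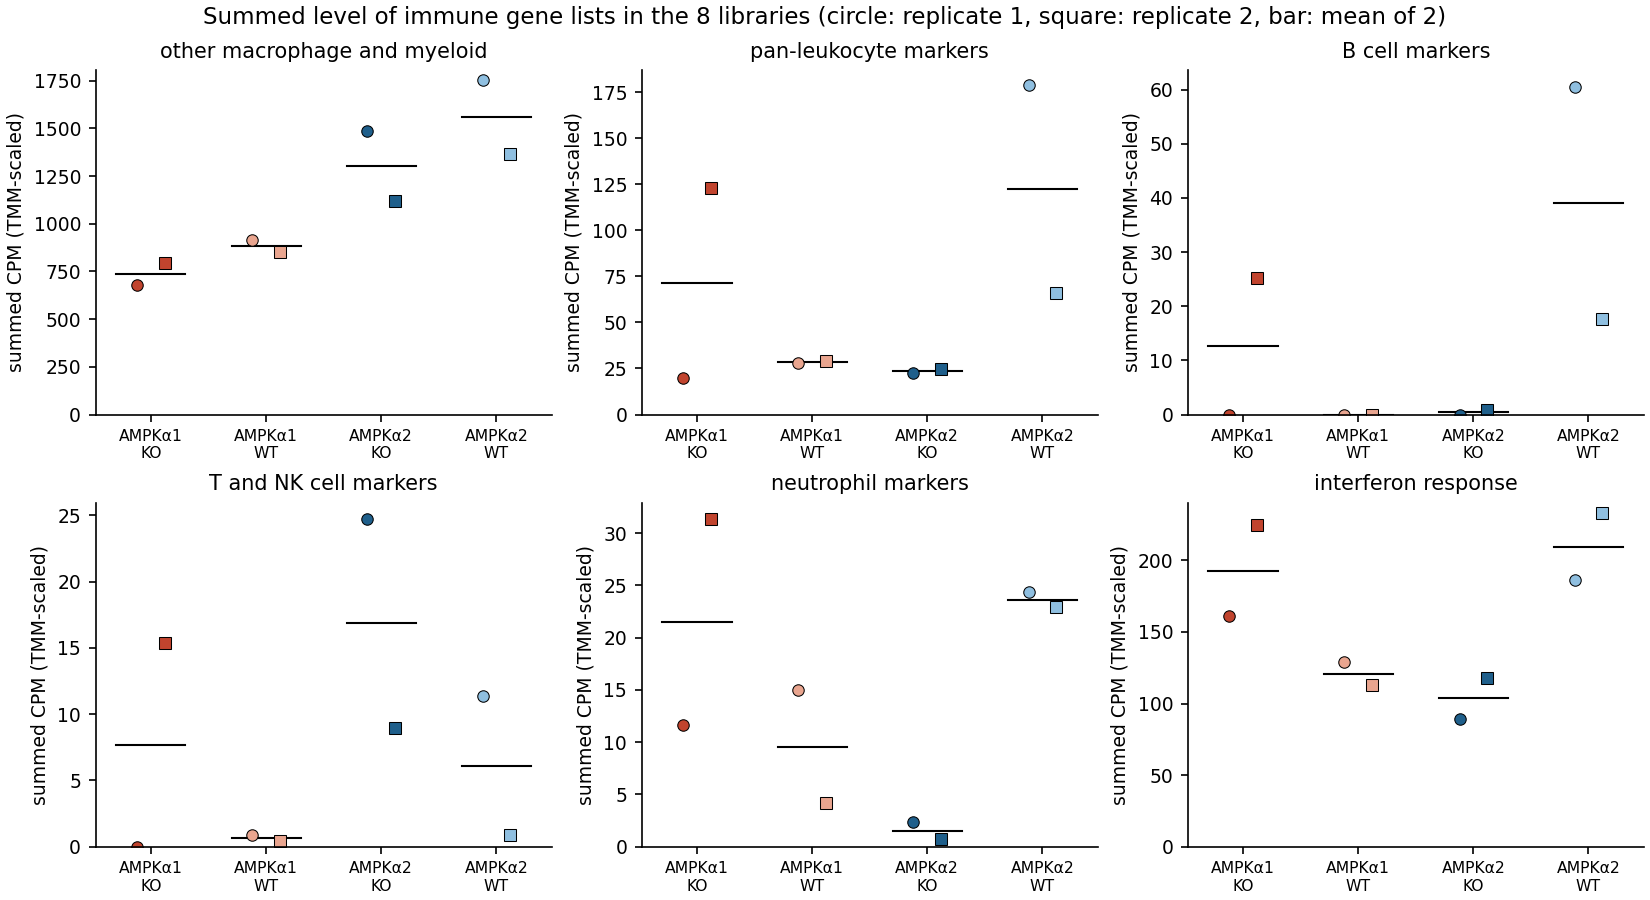
Summed level of 6 immune gene lists in the 8 libraries, in CPM after TMM scaling, each panel on its own axis from 0; circles are replicate 1, squares replicate 2 and bars the mean of 2. B cell markers stand at 25.2 CPM in AMPKα1 KO 2 and at 60.6 and 17.7 CPM in the AMPKα2 WT libraries and at or near 0 elsewhere, while the other macrophage and myeloid genes run from 678 to 914 CPM in the AMPKα1 libraries and from 1118 to 1751 CPM in the AMPKα2 libraries, an order that turns with scaling by library totals.

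The other macrophage and myeloid genes (36 of 40 listed had an APS) summed to 1487 and 1118 CPM in AMPKα2 KO and to 1751 and 1365 CPM in AMPKα2 WT, with overlapping groups. Apoe, Ctsb, Ctsd and Lgmn held most of the reads of this list in each library, so the sums mainly follow those genes. With CPM from library totals KO lay below WT without overlap. 0 of 32 tested passed, 21 were below 0 and 11 above, and the median was -0.26. In AMPKα1 the sums were 678 and 796 CPM in KO and 914 and 854 CPM in WT, without overlap there but with overlap in CPM from library totals, 0 of 33 passed, 19 were below 0 and 14 above, and DESeq2 called 1. The most read of these, Apoe and Lgmn, had log2 fold changes of -0.53 (SE 0.29) and 0.92 (SE 0.47) in AMPKα2 and of -0.30 (SE 0.49) and 1.15 (SE 0.52) in AMPKα1, none with an adjusted p under 0.64 in edgeR. Lgmn encodes legumain, a lysosomal protease, and Apoe the lipid carrier apolipoprotein E.

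The lists of other antigen presentation genes were read in every library as sums, the class I list at 179.6 to 526 CPM and the class II list at 41.8 to 87.4 CPM. Calr and Canx held most of the class I reads in each library. Single genes, among them H2-D1, H2-Q6, H2-T23, H2-M3 and H2-DMa, were not read in every library. Of 15 class II pathway genes listed 7 had an APS, and 0 of 7 passed in AMPKα1 and 0 of 4 in AMPKα2. Ciita, the master regulator of class II transcription, had log2 fold changes of 0.59 (SE 0.87) and 0.17 (SE 0.52), and Ctsl, another lysosomal protease, -1.09 (SE 0.75) and -0.31 (SE 0.28). Of 21 class I pathway genes 11 had an APS, and 0 of 10 and 0 of 6 passed. Calr and Canx, chaperones of class I assembly, had -0.37 (SE 0.41) and -0.76 (SE 0.52) in AMPKα1 and -0.44 (SE 0.26) and 0.35 (SE 0.26) in AMPKα2. Symbols beginning with H2 had 9 APSs of 7 genes with 461 reads in all, of which 197 lay on 5 sites of unplaced or alternative scaffolds, so the reads of the polymorphic MHC genes are uncertain.

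Between the models, 16 entries of the immune lists were called higher in AMPKα2 and 1 lower, of 109, beside 15.8% and 6.69% of all genes. The count called higher is near the background share and the count called lower is below it, a difference that was not tested. Psap, a lysosomal activator protein, had a log2 fold change of 2.48 (SE 0.40), Csf1r, the receptor of the macrophage growth factor, 1.67 (SE 0.33), Apoe 1.43 (SE 0.30) and the lysosomal protease Ctsd 1.29 (SE 0.35). In the class I pathway Psme1, a proteasome activator subunit, had 3.68 (SE 0.45), Pdia3 2.28 (SE 0.40) and Canx 1.19 (SE 0.35), while the aminopeptidase Erap1 was lower, at -2.37 (SE 0.87), and passed in 7 of 14 alternatives. C3 and Serping1 of the complement system had 1.78 (SE 0.50) and 0.84 (SE 0.28). Of 14 alternatives, Serping1 passed in 9, C3 and Canx in 11, Psap in 12, and Csf1r, Apoe, Ctsd and Pdia3 in 13. With library totals Csf1r, Apoe, Ctsd, Canx, C3 and Serping1 turned to below 0, though not relative to the median of all genes (0.83 to 1.70 above it), and of the genes named here Psme1 passed in all 14 alternatives, with adjusted p from 6.34e-13 to 0.00938.

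In AMPKα2 KO against WT, 0 of 1 tested T and NK cell marker, 0 of 4 mast cell markers, 0 of 1 dendritic cell marker, 0 of 10 other complement genes and 1 of 11 interferon response genes (Bst2) passed. In AMPKα1 the counts were 0 of 3, 0 of 3, 0 of 3, 0 of 12 and 0 of 18. The summed interferon response was 89.5 and 118 CPM in AMPKα2 KO against 186 and 233 CPM in AMPKα2 WT, and 161 and 224 CPM in AMPKα1 KO against 129 and 113 CPM in AMPKα1 WT. Neither pair overlapped, and the order of KO and WT was opposite in the 2 models, a difference that was not tested for the summed list. In AMPKα1, 10 of the 18 genes had a log2 fold change above 0 and 8 below it. Bst2 alone held 123 of the 224 CPM in AMPKα1 KO 2. In AMPKα2, 2 genes were above 0 and 9 below, and only Ifi27, Ifi35 and Bst2 had 16 reads or more in KO. The muscle fibre sums after TMM scaling also did not overlap in either model, lower in KO in AMPKα1 and higher in KO in AMPKα2. Of the 8 lists for muscle fibres, satellite cells, fibroblasts, endothelium, smooth muscle, adipocytes, Schwann cells and red cells, 0 of 50 and 0 of 45 tested entries passed in AMPKα1 and AMPKα2, and between the models 14 were called higher and 4 lower of 50, beside 15.8% and 6.69% of all genes. Muscle fibre markers were below 0 for 9 of 10 in AMPKα1 KO against WT (median -0.69, 0 called, 1 by DESeq2) and above 0 for 8 of 10 in AMPKα2 (median 0.51, 0 called, 1 by DESeq2). Between the models 6 of 10 muscle fibre markers and 2 of 6 red cell markers were called higher, as Lyz2 was, and their part in the values of the members was not tested.

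The genes whose profile over the 8 libraries was most like the mean profile of the members were Mfge8, Klhl40, Actr2, Cxcl14 and Emc10, of 9962 genes with at least 100 reads. Likeness was the root mean square difference of centred log2(CPM + 1) values over the 8 libraries, which was 0.13 for Mfge8 and 0.22 for Emc10. Mfge8, a secreted protein that bridges dying cells to phagocytes, ran from 29.2 to 64.4 CPM in the AMPKα1 libraries and from 75.1 to 116 CPM in the AMPKα2 libraries. The 7 members used for that mean were themselves less like it, from 0.46 for C1qc to 1.27 for Lyz2, so the mean describes none of them closely.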

How the data were processed

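WTTS-seq libraries of gastrocnemius from 8 mice (4 groups of 2, grouped by sample title) were analysed. The authors trimmed the leading T bases, kept reads of at least 16 bases, mapped them with TMAP to GRCm38.p5, clustered 3′ ends within 24 bases and assigned genes with Cuffcompare. The deposited values are raw read counts per APS and library, made after PCR amplification.

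Counts were summed per gene symbol. Reads without a gene (1.88 to 2.85% in AMPKα1 and 15.3 to 17.9% in AMPKα2 libraries) were left out of the gene-level fits. KO was compared with WT within each model, and the models and the interaction over all 8 libraries, by edgeR 4.0.16 quasi-likelihood tests in R 4.3.3 (robust, TMM scaling, at least 16 reads in the fit, Benjamini-Hochberg adjustment over all features, threshold 0.1). DESeq2 1.42.0, other scalings, no filter, 1 fit for the 8 libraries, a replicate block, sense APSs, the most read APS and leaving out each library were the alternatives. The fits were tested on simulated counts. Wilson 95% intervals came from SciPy 1.17.1, windows from GENCODE M21 transcripts. Each library is 1 mouse, so p-values rest on the spread between mice, with 2 a group, which the fits partly share across genes. In the comparison of models that spread also takes in KO effects that differ between the models.

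Besides the members, the text names list genes that passed a gene-level comparison (at most 4 per list and comparison, by adjusted p), the 2 most read of a list, and the 5 genes most like the members. Lists of non-immune cells are given by counts only. Prkaa1, Prkaa2, Lyz1, Patl2 and Ctsb were named after their values were seen. The members and lists were chosen with earlier results of these data known. 1 item is not reported here by name.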

Additional observations from a re-analysis of the deposited data

How the results depend on the processing

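The number of members that passed stayed the same in 62 of 70 alternatives and moved in 8. With no filter on low reads, 2 members passed in AMPKα2 KO against WT (B2m and Cd74) and 1 member APS (the distal Cd74 site). Leaving out 1 library gave 0 to 1 members in AMPKα2, 0 to 1 for the interaction and 1 to 2 between models, where Ctss passed without AMPKα1 KO 1, Cd74 without AMPKα1 KO 2 and B2m without AMPKα1 WT 2. Library totals called 4 members between models. There the log2 values turned to -1.59 (C1qa), -1.02 (C1qb), -1.62 (C1qc), -0.91 (Ctss), -0.93 (Cd74), -0.15 (Csf1r), -0.34 (Apoe), -0.47 (Ctsd), -0.57 (Canx), -0.0553 (C3) and -0.93 (Serping1), and Canx was -0.91 with its most read APS alone. With 1 library left out, AMPKα1 KO against WT ran from -3.87 to 0.35 for C1qb, -0.25 to 0.88 for Lyz2, -3.59 to 2.03 for Ctss, -1.22 to 1.49 for Cd74 and -0.0246 to 0.57 for B2m. AMPKα2 KO against WT ran from -0.34 to 0.38 for C1qa, -0.73 to 0.28 for C1qb, -0.58 to 0.17 for Lyz2 and -0.52 to 0.0269 for the proximal B2m site, and the comparison of models from -0.14 to 0.54 for C1qa and -0.054 to 0.30 for C1qc. Replicate numbers did not pair the samples (correlation of deviations 0.0577 and -0.0130), and the replicate block called 0 members, turned Ctss to -0.59 in AMPKα1 and C1qa to 0.0187 in AMPKα2, and moved the AMPKα2 calls from 51 to 77 genes and from 13 to 519 APSs. Calls over all features also moved, in AMPKα1 from 0 genes to 115 (DESeq2) and 83 (8 libraries in 1 fit) and from 2 APSs to 218 (DESeq2), 48 (totals) and 4 (no filter), in AMPKα2 from 51 genes to 161 (totals), 376 (no filter) and 4 (8 libraries) and from 13 APSs to 96 (DESeq2), 42 (totals) and 557 (no filter), for the interaction from 9 to 172 (DESeq2), 1 (totals) and 21 (sense APSs), and between models from 3445 to 7929 (totals). With 1 library left out these counts ran from 29 to 89 genes in AMPKα2, 0 to 542 for the interaction, 0 to 170 APSs in AMPKα1 and 0 to 76 in AMPKα2. The cause of these moves was not tested. With CPM from library totals, 25 of 32 group levels moved by over 1 SD.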
